A study of Mus musculus with 13 samples.

Results

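The 34 genes described here encode the proteins that bring glucose into a cell, break it down to lactate and carry the lactate out, together with the oxygen-sensing factors that control many of these genes and with well-known targets of those factors. They were taken by gene symbol, and each of the 34 was found as 1 row among the 18748 genes of the deposited table. The 34 genes also passed the low-count filter, as did 14067 genes in all. Their RNA was measured by bulk sequencing of messenger RNA from mouse mandibular condylar cartilage, which caps the lower jaw at the temporomandibular joint. The groups were 7 libraries from young mice aged 2 months and 6 libraries from aged mice aged 18 months. No treatment, allele, strain or sex is named for either group in the sources used here. The labels number the libraries without saying that each came from a different mouse, so p-values measure the spread between these libraries.

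Glycolysis splits glucose into pyruvate, and lactate dehydrogenase turns pyruvate into lactate where mitochondria do not use it. Cartilage holds no blood vessels, and its cells are known for relying on glycolysis at low oxygen. The hypoxia-inducible factors HIF-1α and HIF-2α are transcription factors that prolyl hydroxylases mark for destruction when oxygen is present. When oxygen is low they persist and switch on genes for glucose uptake, glycolysis, vessel growth and survival. Many glycolytic steps can be run by several isozymes, proteins of different genes that catalyse the same reaction, and skeletal muscle and red blood cells use isozymes of their own.

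Counts per library summed to between 16356839 and 18203443. Among 12 chondrocyte markers, genes that mark cartilage cells, 9 were lower, 1 was higher and 2 were not called in aged libraries. Their summed share of counts was 3.07 to 4.54% in young and 1.5002 to 3.19% in aged libraries. Col2a1, the main cartilage collagen, was lower in aged libraries (25340 against 6836 CPM on average, counts scaled to a common library total by TMM). Acan averaged 2119 and 2039 CPM, and Cnmd, a vessel-repelling cartilage protein, 25.7 and 0.587 CPM. Markers of other cells moved with age too. Skeletal muscle markers were called higher for 16 of 18 genes, from a summed share of 0.0661 to 0.596% of counts in young to 0.641 to 2.18% in aged libraries. Erythroid markers, genes of developing red blood cells, were called higher for 16 of 16 genes, from 0.0371 to 0.146% in young to 0.228 to 1.59% in aged libraries. Neutrophil markers were called higher for 11 of 13 genes, from 0.0580 to 0.185% to 0.132 to 0.671%. Osteoblast and osteocyte markers were called lower for 8 of 11 genes and higher for 1, Sost, from 9.998 to 11.8% to 3.08 to 4.31%. Col1a1 made up the largest part of that share, at 102993 CPM on average in young and 27257 in aged libraries. Endothelial markers were called higher for 1 and lower for 3 of 8, macrophage and osteoclast markers for 2 and 6 of 8 (0.412 to 0.524% against 0.196 to 0.345%). Adipocyte markers were called higher for 3 of 3 tested, from 0.00160 to 0.00404% to 0.00529 to 0.0129%. For the muscle, erythroid, osteoblast and osteocyte, macrophage and osteoclast, and adipocyte shares the ages did not overlap. Each gave p = 0.000583 (two-sided exact permutation test), the smallest value that 7 against 6 libraries can give. No marker of these lists was at 0 in every library. In bulk samples, fewer cells of a type and less RNA per cell cannot be told apart, and this holds for each result given here.

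Most of the 34 genes were higher in aged cartilage. In the quasi-likelihood test of edgeR, with p-values adjusted by Benjamini-Hochberg over the 14067 tested genes, 20 were called higher in aged libraries, 2 were called lower and 12 were not called. Across tested genes, 24.7% were called higher and 21.6% lower. The median log2 fold change (aged over young) was 0.36 over the 34 genes and 0.01 over tested genes. Among the 12 genes not called, 9 had values above 0 and 3 below 0. For 7 genes, Hk1, Hk2, Gpi1, Pfkm, Pfkfb4, Egln3 and Mxi1, the lowest aged library was above the highest young library, whereas 8.28% of tested genes showed this. No gene of the 34 showed the opposite, against 10.9% of tested genes. Called changes were at least 2-fold for 6 genes, namely Slc2a3, Hk2, Pfkm, Aldoa and Egln3, which were higher, and Car9, which was lower. The 34 genes together took a share of all counts of 0.591 ± 0.0604% at the young age (SD, n = 7 libraries) and 1.03 ± 0.110% at the aged one (SD, n = 6 libraries). This share was taken without TMM scaling, so it also depends on how abundant genes such as Col1a1 changed. With library sizes alone in place of TMM scaling, 27 of the 34 passed as higher and 2 as lower, beside 7034 higher and 1253 lower of tested genes. That scaling moved the median over tested genes to 0.24 and that over the 34 genes to 0.59.

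**Figure D1:**
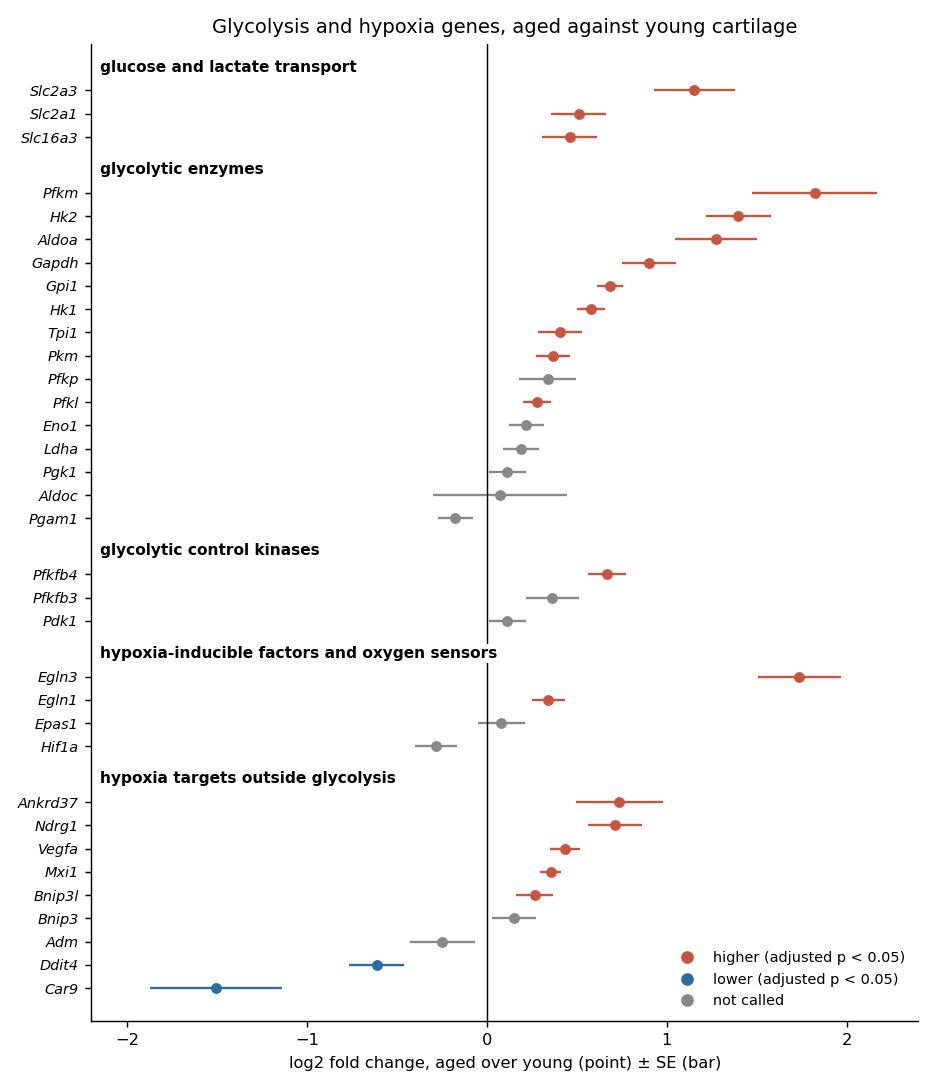
Each point is the log2 fold change of 1 gene, aged over young, with its SE as a bar, and the genes are grouped by role. The 20 genes called higher reach from Bnip3l at 0.27 to Pfkm at 1.82, and the 2 called lower are Car9 at −1.504 and Ddit4 at −0.61.

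Hypoxia-inducible factors bind the core letters ACGTG or GCGTG, so the window before each start was searched for them. The plot of fold changes by role shows genes of opposite direction inside the target group. Windows of 3 of its genes (Mxi1, Car9 and Ddit4) are set below beside windows of genes with other roles. Promoter windows reaching from 250 bases before to 50 bases after the start of transcription were found for 30 of the 34 genes in RefSeq (build GRCm38.p6). Slc2a3, Ndrg1, Epas1 and Bnip3l had no entry. Some genes have several start sites and so several windows, 46 windows for the 30 genes, and a gene was counted where any of its windows held the letters. ACGTG on either strand was present for 22 of 30 genes (73.3%), against 28.4% of the 11156 tested genes with an entry, and in 56.5% of the windows against 24.3%. GCGTG on either strand was present in 19 of 30 (63.3%), against 54.0%. The letters CACGTG, which hold ACGTG on both strands and are also the E-box of other factors, were present in 5 of 30 (16.7%), against 11.3%. Among the 22 genes with ACGTG, 13 were called higher and 2 lower, with a median log2 fold change of 0.37. Among the 8 without it (Adm, Eno1, Gpi1, Pdk1, Pfkfb4, Pfkl, Pfkp and Tpi1), 4 were called higher and none lower, with a median of 0.31. A match describes letters in a window and does not show that a factor binds there. The list was made to hold known targets of these factors. A higher share than over tested genes is thus no finding about age.
The 250 bases before the start are printed 5′ to 3′ on the gene's own strand for 3 genes whose ages did not overlap (Hk2, Egln3, Mxi1), 2 that were not called (Ldha, Pgk1) and both that were lower (Car9, Ddit4). For Mxi1 and Ldha, 1 window that held ACGTG is shown out of 3 and 2. Each printed window holds ACGTG. Genes without it were not printed, among them Gpi1 and Pfkfb4, whose ages also did not overlap. Capitals mark each ACGTG or GCGTG read on either strand.
Hk2 (chr6:82774455-82774704, minus strand): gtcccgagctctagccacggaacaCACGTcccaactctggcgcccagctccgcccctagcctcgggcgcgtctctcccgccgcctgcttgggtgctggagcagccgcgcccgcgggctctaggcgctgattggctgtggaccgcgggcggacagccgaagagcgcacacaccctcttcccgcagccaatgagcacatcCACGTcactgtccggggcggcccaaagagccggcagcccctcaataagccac
Egln3 (chr12:54203875-54204124, minus strand): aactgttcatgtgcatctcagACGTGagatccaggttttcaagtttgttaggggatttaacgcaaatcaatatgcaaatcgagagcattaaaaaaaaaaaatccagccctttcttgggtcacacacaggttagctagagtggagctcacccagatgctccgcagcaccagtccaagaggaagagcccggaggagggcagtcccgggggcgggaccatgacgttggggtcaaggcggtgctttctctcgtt
Mxi1 (chr19:53329163-53329412, plus strand): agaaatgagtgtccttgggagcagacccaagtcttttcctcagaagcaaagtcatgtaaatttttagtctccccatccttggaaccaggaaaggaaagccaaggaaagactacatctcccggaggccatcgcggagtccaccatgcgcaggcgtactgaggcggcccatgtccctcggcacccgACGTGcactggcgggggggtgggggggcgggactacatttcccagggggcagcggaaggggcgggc
Ldha (chr7:46845554-46845803, plus strand): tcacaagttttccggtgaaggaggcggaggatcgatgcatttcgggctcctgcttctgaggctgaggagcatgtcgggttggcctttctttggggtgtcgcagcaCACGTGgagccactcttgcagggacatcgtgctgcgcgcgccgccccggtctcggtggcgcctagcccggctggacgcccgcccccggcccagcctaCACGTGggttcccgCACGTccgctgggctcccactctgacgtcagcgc
Pgk1 (chrX:106186850-106187099, plus strand): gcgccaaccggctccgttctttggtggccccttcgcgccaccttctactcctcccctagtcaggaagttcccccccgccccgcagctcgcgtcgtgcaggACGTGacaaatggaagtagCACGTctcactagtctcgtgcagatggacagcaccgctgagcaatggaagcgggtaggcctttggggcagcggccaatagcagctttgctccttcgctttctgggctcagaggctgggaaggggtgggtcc
Car9 (chr4:43506776-43507025, plus strand): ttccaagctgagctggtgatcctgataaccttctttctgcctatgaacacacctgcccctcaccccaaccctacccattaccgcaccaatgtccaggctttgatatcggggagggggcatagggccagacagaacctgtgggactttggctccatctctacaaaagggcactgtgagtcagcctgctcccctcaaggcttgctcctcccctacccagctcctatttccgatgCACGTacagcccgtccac
Ddit4 (chr10:59951771-59952020, minus strand): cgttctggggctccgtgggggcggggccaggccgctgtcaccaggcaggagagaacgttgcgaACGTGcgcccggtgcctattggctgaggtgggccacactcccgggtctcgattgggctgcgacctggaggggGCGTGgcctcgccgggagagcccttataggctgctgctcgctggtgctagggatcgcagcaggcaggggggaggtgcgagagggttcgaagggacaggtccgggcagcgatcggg
Ldha, which was not called, held 5 matches, first bases 145, 144, 48, 47 and 34 upstream of the start, where 2 pairs overlap as CACGTG. Pgk1, also not called, held matches at 150 and 131. Hk2 held them at 226 and 52, Egln3 at 229 and Mxi1 at 66. The other windows of Mxi1 held 1 match in all, at 25 bases upstream of a later start, and the other window of Ldha held no ACGTG. Car9, which was lower in aged libraries, held 1 match at 18 bases upstream, and Ddit4 held ACGTG at 187 and GCGTG at 115. Genes called higher, called lower and not called each carried the letters. Since only windows with ACGTG were printed, they do not compare genes with and without it.

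Glucose and lactate transporters were called higher in aged cartilage, 3 of 3. Slc2a1 (gene ID 20525) encodes GLUT1, the glucose transporter of most cells. It lay between 27.1 and 46.9 CPM in young libraries (median 35.8) and between 45.0 and 70.1 in aged ones (median 46.2). Its log2 fold change was 0.51 ± 0.15 (SE; edgeR adjusted p = 0.015), and only 2 of 6 aged libraries, replicates 4 and 6, exceeded the highest young library. Slc2a3 (gene ID 20527) encodes GLUT3, a high-affinity glucose transporter also abundant in neurons and white blood cells. It rose from 23.5 to 37.8 CPM (median 26.9) to 33.8 to 93.0 CPM (median 58.6), by a log2 fold change of 1.15 ± 0.22 (edgeR adjusted p = 0.000973). Aged replicates 1 and 6 were highest at 93.0 and 92.2 CPM. These 2 libraries also had the highest erythroid shares, 1.22 and 1.59% of counts, and the highest neutrophil shares, 0.615 and 0.671%. Aged replicates 2 and 3 were lowest at 33.8 and 38.1 CPM, and 5 of 6 aged libraries were above the young range. Slc16a3 (gene ID 80879) encodes MCT4, which exports lactate. It went from 53.7 to 90.3 CPM (median 62.7) to 70.6 to 124 CPM (median 85.3), by 0.46 ± 0.15 (edgeR adjusted p = 0.0239). Aged replicates 4 and 6 alone lay above the young range, and without either one the call was lost (edgeR adjusted p = 0.0613 and 0.0621).

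Of 15 glycolytic enzymes, 9 were called higher and 6 were not called, with a median log2 fold change of 0.37. Among the 9 genes of the upper pathway, from glucose to the triose phosphates, 7 were called. Hk1 and Hk2 encode hexokinases, which trap glucose by adding a phosphate. Hk1 (gene ID 15275) lay between 128 and 152 CPM in young libraries (median 135) and between 159 and 229.5 in aged ones (median 206), a log2 fold change of 0.58 ± 0.08 (edgeR adjusted p = 4.62e-05). Hk2 (gene ID 15277), the insulin-responsive form typical of muscle, fat and tumour cells, went from 26.0 to 52.7 CPM (median 34.7) to 65.9 to 132 CPM (median 90.2). This is a log2 fold change of 1.398 ± 0.18 (edgeR adjusted p = 4.06e-05), and the highest young library was replicate 2. Gpi1 (gene ID 14751), glucose-6-phosphate isomerase, was separated cleanly between ages. Its young libraries lay between 203 and 276 CPM (median 237) and its aged ones between 354 and 419 (median 384), with a log2 fold change of 0.69 ± 0.07 (edgeR adjusted p = 7.38e-06).

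Phosphofructokinase commits sugar to glycolysis and is built from liver, muscle and platelet subunits. Pfkm (gene ID 18642), the muscle subunit, had the highest fold change of the 34 genes. Its young libraries held 57.6, 183, 83.1, 172, 109, 83.8 and 54.9 CPM for replicates 1 to 7. Its aged libraries held 198, 513, 556, 281, 495 and 210.0 CPM for replicates 1 to 6. Aged replicates 2, 3 and 5 stood above the other aged libraries, and these 3 also had the highest muscle marker shares (2.01, 2.18 and 1.80% of counts) and the highest adipocyte marker shares (0.0127, 0.0129 and 0.0116%). Pfkm's log2 fold change was 1.82 ± 0.35 (edgeR adjusted p = 0.000887). Pfkl, the liver subunit, changed by 0.28 ± 0.08 (edgeR adjusted p = 0.00874), from 71.5 to 88.2 CPM in young to 83.5 to 113 in aged libraries. Pfkp, the platelet subunit, was not called at 0.34 ± 0.16 (edgeR adjusted p = 0.0957), with 53.0 to 70.9 CPM in young and 44.4 to 103 in aged libraries. Its lowest value was aged replicate 5, without which it was called higher (edgeR adjusted p = 0.00774).

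Aldolase, triose phosphate isomerase and glyceraldehyde-3-phosphate dehydrogenase act around the middle of the pathway. Aldoa (gene ID 11674), the main aldolase of muscle and many other tissues, went from 464 to 902 CPM (median 494) to 825 to 1844 CPM (median 1519), a log2 fold change of 1.28 ± 0.23 (edgeR adjusted p = 0.000521). The highest young library, replicate 2, was above the lowest aged one, replicate 1. Gapdh (gene ID 14433), often used as a reference gene, was the most abundant of the 34 per length, with mean TPM, a unit corrected for length, of 1716 in young and 3315 in aged libraries. It went from 761 to 1269 CPM (median 875) to 1181 to 2063 CPM (median 1760.1), by 0.90 ± 0.15 (edgeR adjusted p = 0.000265). Young replicate 2 was the 1 young library inside the aged range, and 5 of 6 aged libraries exceeded it. Tpi1 changed by 0.41 ± 0.12 (edgeR adjusted p = 0.0137), from 240.2 to 345 CPM to 262 to 443 CPM. Aldoc, the brain aldolase, was not called (log2 fold change 0.07 ± 0.37, edgeR adjusted p = 0.886). It lay between 6.24 and 10.2 CPM in young libraries, at 24.6 CPM in aged replicate 1 and between 5.01 and 6.597 in the other 5 aged libraries. Without aged replicate 1 it was called lower, at −0.60 (edgeR adjusted p = 0.0055), and its sign also turned under quantile and TPM scaling.

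Among the 5 genes of the lower pathway, which act after glyceraldehyde-3-phosphate dehydrogenase, 1 was called. It was Pkm, pyruvate kinase of muscle and most other tissues. It changed by 0.37 ± 0.09 (edgeR adjusted p = 0.00555), from 812 to 1146 CPM in young to 1048 to 1395 in aged libraries. Ldha (gene ID 16828) encodes the subunit of lactate dehydrogenase that favours lactate production. It lay between 403 and 539 CPM in young (median 470) and between 418 and 632 in aged libraries (median 532), with a log2 fold change of 0.19 ± 0.10 that was not called (edgeR adjusted p = 0.131). Without aged replicate 1 it was called higher (edgeR adjusted p = 0.0400). Eno1, an enolase, stood at 0.22 ± 0.10 (edgeR adjusted p = 0.0771), with 441 to 584 CPM in young and 494 to 705 in aged libraries, and was called without aged replicate 2 (edgeR adjusted p = 0.0314). Pgk1, which makes the first ATP of the pathway, stood at 0.11 ± 0.10 and Pgam1, a phosphoglycerate mutase, at −0.18 ± 0.10, with edgeR adjusted p of 0.388 and 0.152. Pgk1 covered 214 to 302 CPM in young and 223 to 304 in aged libraries, and Pgam1 228 to 287 and 190.4 to 268. The number called among these genes depended on the scaling. With library sizes alone, Pkm, Eno1, Ldha and Pgk1 were called higher (edgeR adjusted p = 4.85e-05, 0.00077, 0.00138 and 0.00642). In limma on log2(TPM + 1), Pkm, Eno1 and Ldha were called higher (limma adjusted p = 0.00129, 0.0267 and 0.0331). The sign of Pgam1 turned with library sizes alone (0.05), where it was not called. The near copy of Eno1, Eno1b, held 0 to 2 counts in any library, and other copies of glycolytic genes could share reads that the deposited counts had to divide.

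**Figure D2:**
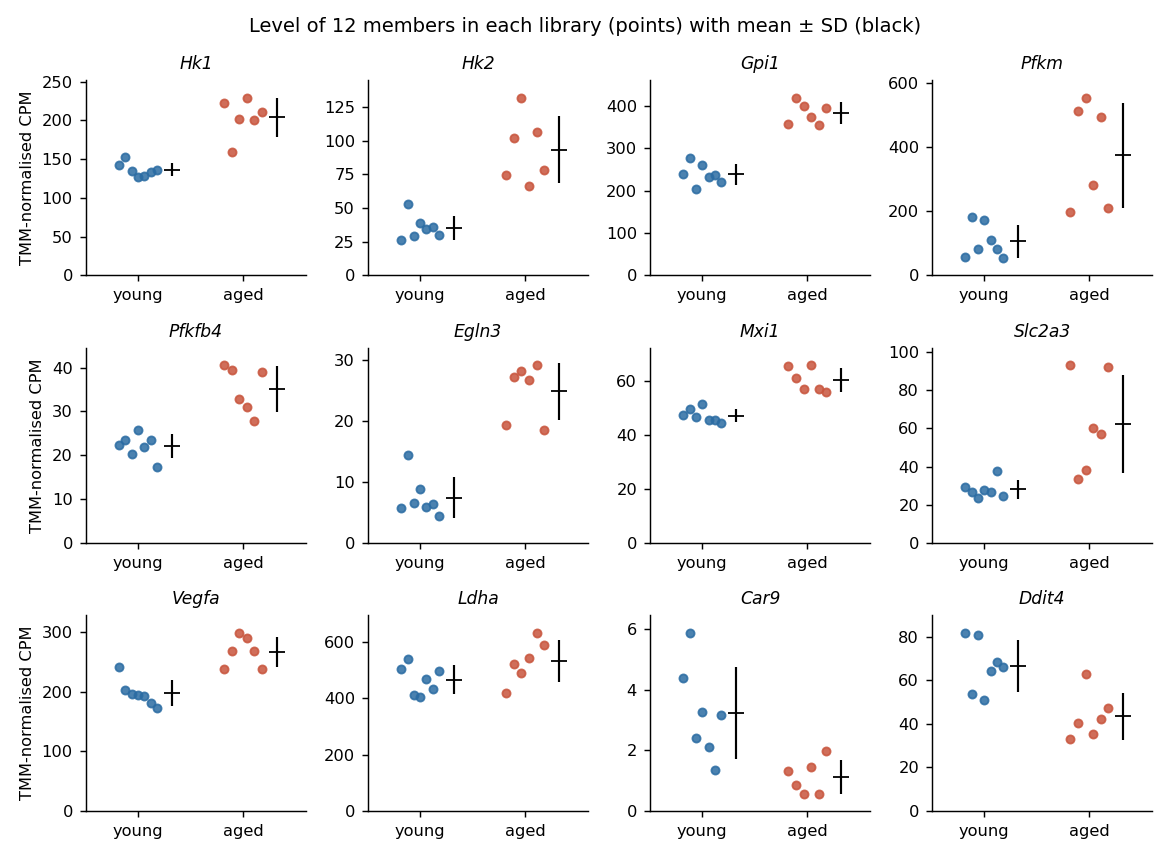
Points are TMM-normalised CPM of 12 of the genes in each library, with the mean and SD of each age in black and axes from 0. The ages do not overlap for Hk1, Hk2, Gpi1, Pfkm, Pfkfb4, Egln3 and Mxi1, and they overlap for Slc2a3, Vegfa, Ldha, Car9 and Ddit4.

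Of 3 control kinases, 1 was called higher. Pfkfb3 and Pfkfb4 make fructose-2,6-bisphosphate, the strongest activator of phosphofructokinase, and Pdk1 keeps pyruvate out of mitochondria by switching off pyruvate dehydrogenase. Pfkfb4 (gene ID 270198) went from 17.2 to 25.8 CPM (median 22.3) to 27.9 to 40.5 CPM (median 35.9), a log2 fold change of 0.67 ± 0.11 (edgeR adjusted p = 0.000179). Its ages did not overlap. Pfkfb3 (gene ID 170768), the more abundant of the pair per length, lay between 75.9 and 134 CPM in young (median 93.1) and between 95.9 and 151 in aged libraries (median 129). At 0.36 ± 0.15 it was not called (edgeR adjusted p = 0.0592), but it was called when young replicate 6, aged replicate 2 or aged replicate 4 was left out (edgeR adjusted p = 0.0172, 0.0331 and 0.0390). Pdk1 stood at 0.11 ± 0.10 (edgeR adjusted p = 0.392), with 58.2 to 89.6 CPM in young and 61.0 to 89.0 in aged libraries.

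The factors themselves were not called, whereas both of their prolyl hydroxylases among the 34 genes were higher. Hif1a (gene ID 15251) encodes HIF-1α, which is controlled mostly as a protein. It lay between 177 and 218 CPM in young (median 193) and between 125 and 219 in aged libraries (median 151), a log2 fold change of −0.28 ± 0.12 (edgeR adjusted p = 0.0625). For Hif1a, 5 of 6 aged libraries were below the lowest young library and aged replicate 4 was above the highest. Without aged replicate 4 Hif1a was called lower, at −0.40 (edgeR adjusted p = 0.00279). With all libraries it was called lower by DESeq2 (DESeq2 adjusted p = 0.0469) and under quantile scaling (limma adjusted p = 0.0473). Epas1 (gene ID 13819), which encodes HIF-2α, lay between 133 and 189 CPM in young (median 159) and between 126 and 222 in aged libraries (median 163). This is a log2 fold change of 0.08 ± 0.13 (edgeR adjusted p = 0.645), and without aged replicate 3 it was −0.02. Egln3 (gene ID 112407) encodes PHD3, a prolyl hydroxylase that is itself a target of the factors. It rose from 4.40 to 14.3 CPM (median 6.37) to 18.5 to 29.1 CPM (median 26.9), by 1.74 ± 0.23 (edgeR adjusted p = 4.72e-05). Its ages did not overlap, and its highest young library was replicate 2, the young library with the highest muscle share (0.596% of counts). Egln1, which encodes PHD2, the main oxygen sensor, changed by 0.34 ± 0.09 (edgeR adjusted p = 0.00735), from 84.8 to 118 CPM to 96.3 to 145 CPM.

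Of 9 targets outside glycolysis, 5 were called higher, 2 lower and 2 were not called. Vegfa (gene ID 22339), the main signal for vessel growth, went from 174 to 242 CPM (median 195) to 238 to 299 CPM (median 269), a log2 fold change of 0.43 ± 0.08 (edgeR adjusted p = 0.000657). Only young replicate 1, at 242 CPM, reached into the aged range. Ndrg1 (gene ID 17988), a stress gene linked to differentiation, went from 133 to 273 CPM (median 206) to 237 to 376 CPM (median 349), by 0.72 ± 0.15 (edgeR adjusted p = 0.00157). Ankrd37 (gene ID 654824), a small ankyrin-repeat protein and known target, was low throughout. It went from 1.32 to 4.44 CPM (median 3.80) to 4.27 to 6.54 CPM (median 5.65), by 0.74 ± 0.24 (edgeR adjusted p = 0.0227), and without aged replicate 2 the call was lost (edgeR adjusted p = 0.0502). Mxi1, an antagonist of MYC, changed by 0.35 ± 0.06 (edgeR adjusted p = 0.000197), from 44.3 to 51.6 CPM to 55.8 to 65.8 CPM, with no overlap. Bnip3 and Bnip3l encode related proteins that mark mitochondria for removal. Bnip3l was called at 0.27 ± 0.10 (edgeR adjusted p = 0.0437), with 86.7 to 101 CPM in young and 80.6 to 134 in aged libraries, and lost the call when any library other than aged replicate 2 or 3 was left out (edgeR adjusted p between 0.0515 and 0.108). Bnip3 was not called at 0.15 ± 0.12 (edgeR adjusted p = 0.345), with 46.7 to 86.9 and 65.0 to 81.5 CPM.

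Car9 and Ddit4 were lower in aged cartilage. Car9 (gene ID 230099) encodes carbonic anhydrase 9, which handles acid at the cell surface and is among the most specific targets of HIF-1α. Its young libraries lay between 1.35 and 5.88 CPM (median 3.18) and its aged ones between 0.558 and 1.99 (median 1.101), a log2 fold change of −1.504 ± 0.37 (edgeR adjusted p = 0.00425). Of 6 aged libraries, 4 lay below the young range, at a level near 1 CPM. Ddit4 (gene ID 74747) encodes REDD1, a stress-induced inhibitor of mTORC1 signalling. It fell from 50.8 to 81.8 CPM (median 66.2) to 33.1 to 63.1 CPM (median 41.3), a log2 fold change of −0.61 ± 0.15 (edgeR adjusted p = 0.00515), with aged replicate 3 alone inside the young range. Adm, the vessel-widening peptide adrenomedullin, was not called at −0.25 ± 0.18 (edgeR adjusted p = 0.278), with 4.27 to 10.02 CPM in young and 5.62 to 8.20 in aged libraries.

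The isozyme make-up of several steps differed between the ages. Each gene was expressed as a percent of its family's summed TPM, a per-length scale, and 33 shares in 13 families were compared by two-sided exact permutation tests with Benjamini-Hochberg adjustment. The test called 17 of 33 shares, and the ages did not overlap for 4 of them, those of Hk1, Pfkfb1, Pdk2 and Egln3. Shares of 1 family are not independent of each other. Slc2a1 held 56.6 ± 9.44% of the 3 glucose transporters for young (SD, n = 7 libraries) and 32.9 ± 8.77% for aged ones (SD, n = 6 libraries; exact permutation, adjusted p = 0.00962). Slc2a4, which encodes the insulin-responsive GLUT4 of muscle and fat, went from 16.6 ± 10.3 to 42.4 ± 17.9% (exact permutation, adjusted p = 0.0205; 0.0524 without young replicate 3). Slc2a3 held 26.9 ± 5.07 and 24.6 ± 11.9% (exact permutation, adjusted p = 0.700). Slc2a4 RNA thus had the largest mean share of the 3 transporters in aged libraries, and Slc2a1 RNA in young ones. Over aged libraries the Slc2a4 share ranged from 25.1 to 63.0% and the Slc2a1 share from 24.3 to 47.9%, so Slc2a4 did not lead in each of them.

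Hk1 took a smaller share of hexokinase in aged libraries, although its own level was higher. The Hk1 share was 73.9 ± 3.77% in young and 60.5 ± 4.89% in aged libraries (exact permutation, adjusted p = 0.00481). Hk2 held 13.4 ± 2.54 and 19.9 ± 6.58% and Hk3, a form of white blood cells, 12.7 ± 2.86 and 19.6 ± 7.32% (exact permutation, adjusted p = 0.063 and 0.0726). Summed hexokinase TPM averaged 106 ± 7.25 in young and 205 ± 24.1 in aged libraries. Among phosphofructokinase subunits, Pfkm went from 47.5 ± 12.5 to 71.1 ± 11.5% and Pfkl from 28.2 ± 6.44 to 14.96 ± 5.10% (exact permutation, adjusted p = 0.0205 and 0.0144). The Pfkp share, 24.3 ± 6.18 and 14.0 ± 6.61%, was called (exact permutation, adjusted p = 0.0396) but lost the call without young replicate 1, 3, 5, 6 or 7 or aged replicate 2, 3 or 5 (adjusted p between 0.0546 and 0.0840). Their summed TPM averaged 171 ± 41.8 and 433 ± 140.1.

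Enolase and phosphoglycerate mutase also showed larger shares of the muscle form. Eno3, the muscle enolase, went from 13.6 ± 7.90 to 36.5 ± 14.3% and Eno1 from 85.1 ± 7.803 to 62.4 ± 14.1% (exact permutation, adjusted p = 0.0173 for each). Eno2, the neuronal form, held 1.25 and 1.16% on average (exact permutation, adjusted p = 0.736). Pgam1 went from 81.3 ± 11.6 to 50.6 ± 18.1%, with the rest held by the muscle form Pgam2 (exact permutation, adjusted p = 0.0176). The Ldha share went from 92.6 ± 1.06 to 86.1 ± 6.15%, with the rest held by Ldhb, the heart-type subunit (exact permutation, adjusted p = 0.0176). Aldoa held 99.3 ± 0.233 and 99.6 ± 0.507% of aldolase TPM, and Aldoc 0.725 ± 0.230 and 0.391 ± 0.505% (exact permutation, adjusted p = 0.212 and 0.197).

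Among regulators, Pdk2 went from 29.1 ± 4.24 to 47.5 ± 7.89% of the pyruvate dehydrogenase kinases and Pdk3 from 23.3 ± 3.66 to 14.6 ± 5.53% (exact permutation, adjusted p = 0.00481 and 0.0192). Pdk1 averaged 22.6 and 19.98% and Pdk4 24.9 and 17.9% (exact permutation, adjusted p = 0.227 and 0.0638). Pfkfb1, the liver and muscle form of its family, went from 2.22 ± 0.535 to 6.40 ± 2.64% (exact permutation, adjusted p = 0.00481). Pfkfb3 remained the main form on average, at 61.2 ± 5.67 and 57.3 ± 4.75%, beside Pfkfb4 at 19.8 ± 3.07 and 22.9 ± 3.63% and Pfkfb2 at 16.8 and 13.4% (exact permutation, adjusted p = 0.227, 0.168 and 0.0726). Egln3 went from 4.64 ± 1.66 to 12.3 ± 1.59% of the prolyl hydroxylases and Egln2 from 50.8 ± 2.97 to 43.3 ± 2.91% (exact permutation, adjusted p = 0.00481 and 0.011). Egln1 held 44.5 and 44.4% on average (exact permutation, adjusted p = 0.929). The split between Hif1a (60.2 ± 3.62 and 54.2 ± 9.89%) and Epas1 (39.7 ± 3.62 and 45.7 ± 9.87%) was not called (exact permutation, adjusted p = 0.223 for each). Hif3a, too low to be tested as a gene, held 0.0465 and 0.112% (exact permutation, adjusted p = 0.024), a call lost without young replicate 3, 4, 5 or 6 (adjusted p between 0.0546 and 0.0714). Slc16a1, the MCT1 lactate carrier, went from 18.4 ± 2.69 to 24.7 ± 3.39% beside Slc16a3 (exact permutation, adjusted p = 0.00962). Bnip3 held 57.5 ± 4.39 and 55.9 ± 4.67% of its pair with Bnip3l (exact permutation, adjusted p = 0.609). Some shares were called when 1 library was left out. They were those of Hk2 (young replicate 2 or aged replicate 1, 4 or 6), Hk3 (aged 3 or 5), Pdk4 (young 5 or aged 4 or 5), Pfkfb2 (young 6) and Aldoa and Aldoc (aged 1), with adjusted p between 0.0104 and 0.0446.

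**Figure D3:**
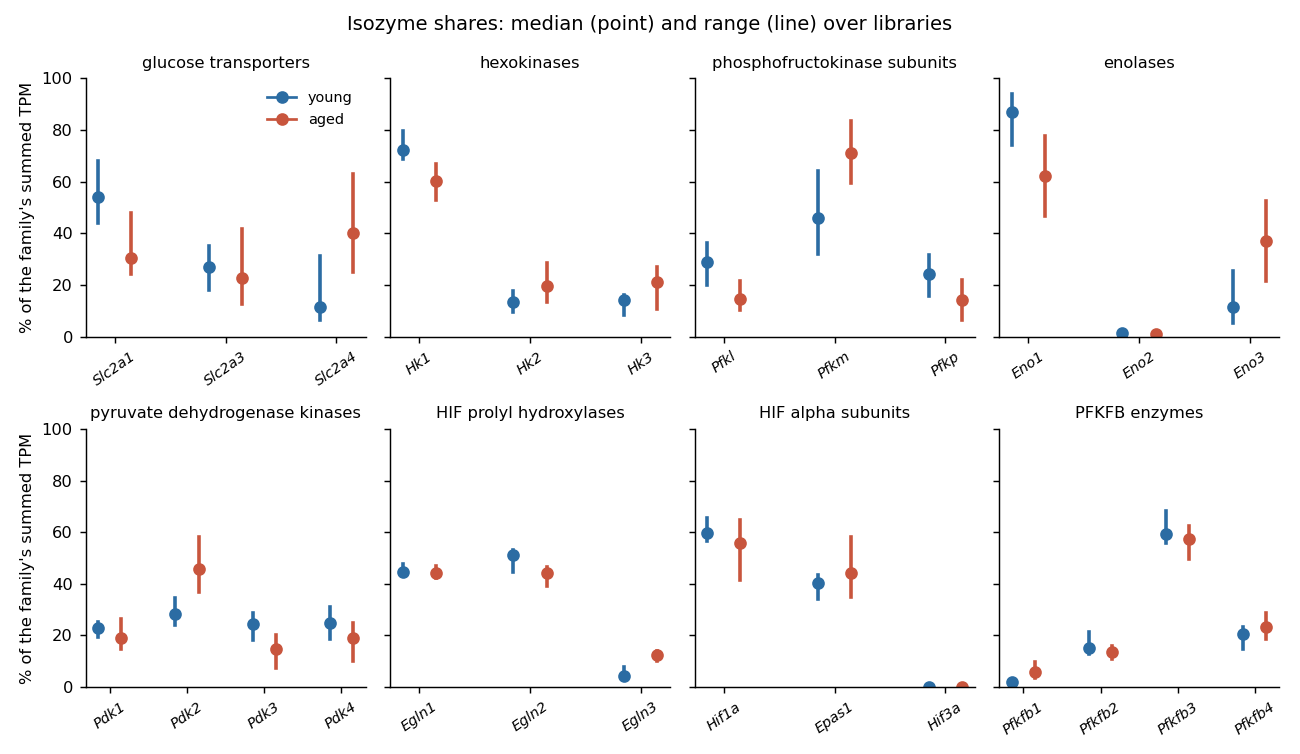
Points are median shares of the family's summed TPM and lines the range over libraries, young beside aged, for 8 families. The young and aged lines are apart for Hk1, Pfkfb1, Pdk2 and Egln3, and they cross each other's range for Hif1a and Epas1.

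Other genes of the same pathways were counted in the same fit. Of 49 further genes of glucose, glycogen and pyruvate metabolism, 46 were tested, 35 were called higher, 3 lower and 8 not, with a median log2 fold change of 0.66. Pklr, the pyruvate kinase of red blood cells and liver, went from 0.126 to 3.31 CPM in young (median 0.700) to 6.43 to 20.3 in aged libraries (median 14.6), a log2 fold change of 3.56 ± 0.52 (edgeR adjusted p = 0.000121). Slc2a4 went from 4.16 to 29.8 CPM (median 7.78) to 35.7 to 122 CPM (median 71.8), by 2.62 ± 0.48 (edgeR adjusted p = 0.00065). Pygm, muscle glycogen phosphorylase, changed by 2.21 ± 0.45 and Fbp2, muscle fructose-bisphosphatase, by 2.16 ± 0.46 (edgeR adjusted p = 0.00144 and 0.00183). The 4 largest rises were in genes known from muscle or red blood cells, and the part of such cells was not tested. Without aged replicates 2, 3 and 5, those of the highest muscle shares, the log2 fold changes were 3.79 for Pklr, 1.77 for Slc2a4, 1.43 for Pygm and 2.44 for Fbp2. Fbp2 was low throughout, at 0.058 to 0.700 CPM in young and 0.542 to 3.38 in aged libraries. For each of the 3 genes called lower the ages did not overlap. Pck2, mitochondrial PEP carboxykinase, went from 92.5 to 98.5 CPM to 57.7 to 72.9 CPM, by −0.60 ± 0.05 (edgeR adjusted p = 1.44e-06). Slc16a7, a high-affinity pyruvate carrier, went from 20.5 to 25.0 CPM to 16.5 to 19.1 CPM, and Pdk3 from 36.4 to 42.7 CPM to 25.0 to 35.3 CPM. Both changed by −0.36 (edgeR adjusted p = 0.000335 and 0.0043).

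Further hypoxia genes did not move together. Of 55 in the table, 53 were tested, 13 were called higher, 23 lower and 17 not, with a median log2 fold change of −0.14. The 24.5% called higher and 43.4% called lower compare with 24.7 and 21.6% of tested genes. Selenbp1, a selenium-binding protein, rose from 4.503 to 6.73 CPM to 17.6 to 20.6 CPM, by 1.83 ± 0.10 (edgeR adjusted p = 3.95e-08). Bhlhe41, a clock-linked repressor, changed by 1.55 ± 0.21 and Stc2, a secreted glycoprotein, by 1.13 ± 0.16 (edgeR adjusted p = 5.32e-05 and 6.77e-05). Lox and Loxl4, which cross-link collagen, were lower. Lox went from 816 to 896 CPM to 209 to 472 CPM, by −1.65 ± 0.17 (edgeR adjusted p = 4.99e-06), and Loxl4 changed by −1.63 ± 0.15 (edgeR adjusted p = 2.47e-06). Car12, a membrane carbonic anhydrase like Car9, went from 26.5 to 52.1 CPM to 5.53 to 11.4 CPM, by −2.16 ± 0.21 (edgeR adjusted p = 3.15e-06). Rcor2, a chromatin corepressor, changed by −1.05 ± 0.09 (edgeR adjusted p = 1.58e-06). Loxl2, the third enzyme of that kind on the list, was not called at −0.31 ± 0.16 (edgeR adjusted p = 0.141). Most osteoblast, osteocyte and chondrocyte markers were lower in the same libraries, and their part in these changes was not tested. With library sizes alone, 20 genes of this list were called higher and 11 lower.

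The muscle marker share was set against each of the 34 genes within each age, on log2 scales, which gave 68 relations. In aged libraries the correlation with Pfkm was r = 0.994 (exact permutation, p = 0.00139, adjusted p = 0.0315, n = 6) and rho = 1.00 (exact permutation, p = 0.00278, adjusted p = 0.063). In young libraries it was r = 0.993 (exact permutation, p = 0.000595, adjusted p = 0.0315, n = 7) and rho = 0.964 (exact permutation, p = 0.00278, adjusted p = 0.063). Without the 2 libraries farthest from the median share, r for Pfkm was 0.989 in aged and 0.992 in young libraries. Gapdh in aged libraries gave r = 0.967 (exact permutation, adjusted p = 0.0315, n = 6) and rho = 1.00, and r = 0.993 without the 2 farthest libraries. In young libraries Gapdh gave r = 0.679 (exact permutation, adjusted p = 0.253, n = 7) and −0.028 without them. Egln1 in aged libraries gave r = 0.837 (exact permutation, adjusted p = 0.0472, n = 6), rho = 0.943 (exact permutation, adjusted p = 0.162) and r = 0.815 without them. Those 4 relations passed the adjustment by r, and by rho no relation did (smallest exact permutation adjusted p = 0.063, for Pfkm in both ages and Gapdh in aged libraries). For 18 of 34 genes in aged and 20 of 34 in young libraries r was above 0. Further relations that did not pass went both ways. In aged libraries Aldoa and Epas1 each gave r = 0.969, and in young ones Hk2 gave r = 0.882 (exact permutation, adjusted p = 0.059 for each). Hk2 gave r = 0.898 in aged libraries (exact permutation, adjusted p = 0.211), Aldoa 0.855 in young ones (adjusted p = 0.0607), and Egln3 0.849 in young and 0.845 in aged ones (adjusted p = 0.0607 and 0.0866). Pfkm, Hk2, Aldoa and Egln3 thus had r above 0.8 in each age with all libraries. Without the 2 farthest libraries, r for Hk2, Aldoa and Egln3 was 0.75, 0.53 and 0.58 in young libraries. In aged ones it was then 0.88, 0.967 and 0.75. Slc2a3 gave r = −0.91 in aged libraries (exact permutation, adjusted p = 0.059, n = 6) and r = −0.00386 in young ones, and Hk1 gave −0.70 and 0.0205.

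**Figure D4:**
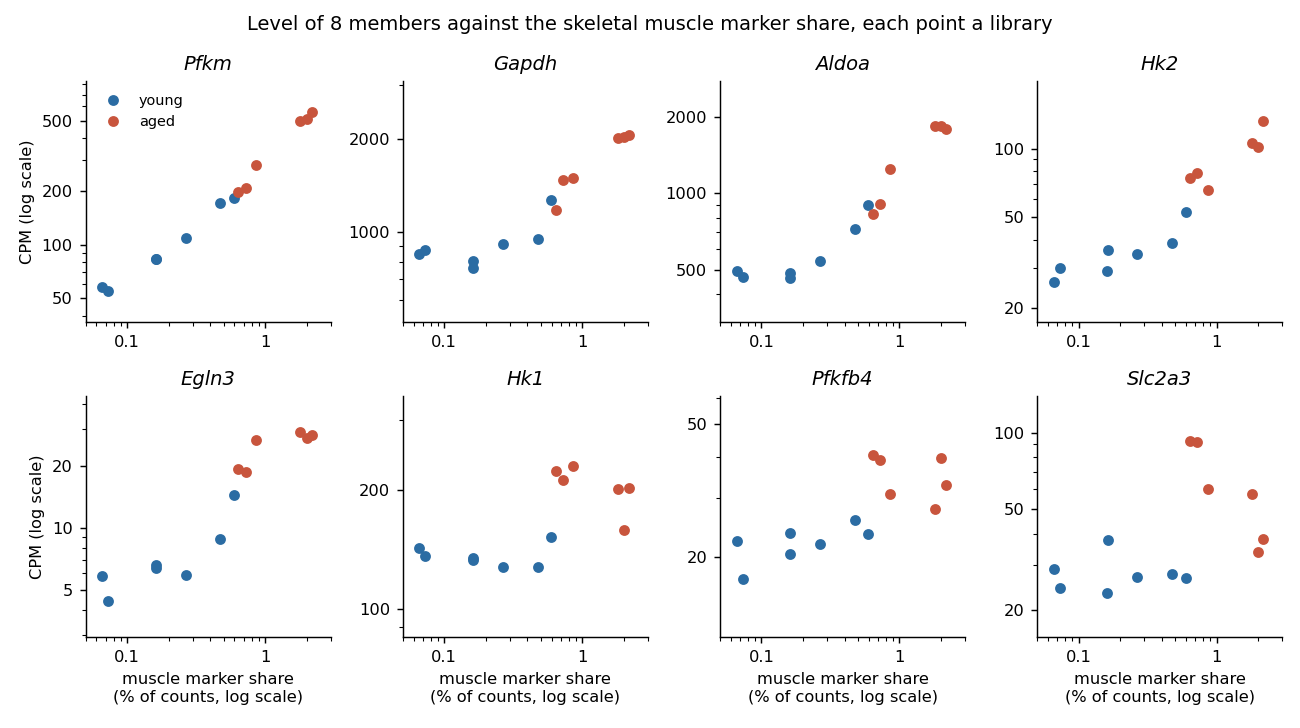
Each point is a library, with the summed share of counts on the skeletal muscle markers across and the CPM of 1 gene upward, both on log scales. Within each age Pfkm follows the muscle share (r = 0.993 in young and 0.994 in aged libraries), while Slc2a3 in aged libraries is lower where the share is higher (r = −0.91).

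Marker scores were added to the fit as covariates, although both scores themselves differed between the ages. Their correlation with age group was r = 0.77 for the muscle score and 0.88 for the erythroid and neutrophil score. With the muscle score, 10 of the 34 genes passed as higher and 0 as lower. Over the 14067 tested genes, that fit called 1895 higher and 1662 lower, against 3471 and 3033 without covariates. The 10 genes were Slc2a1, Slc2a3, Hk1, Hk2, Gpi1, Pfkfb3, Pfkfb4, Egln3, Bnip3l and Mxi1. Among the calls lost, the fold was smaller for Pfkm at 0.35 ± 0.13 (SE; edgeR adjusted p = 0.063), Aldoa at 0.30, Gapdh at 0.36, Ndrg1 at 0.26, Egln1 at 0.09 and Tpi1 at 0.02. It was 0.28 for Pkm, 0.36 for Vegfa, −0.44 for Ddit4 and −1.398 for Car9. It was larger than without the score for Slc16a3 (0.57 ± 0.23, against 0.46 ± 0.15), Pfkl (0.33) and Ankrd37 (0.88), whose SEs were also larger. With the erythroid and neutrophil score, 10 were called higher, Hk2, Gpi1, Pfkm, Aldoa, Gapdh, Epas1, Egln1, Egln3, Vegfa and Ndrg1, and Car9 was called lower. Over tested genes, 1454 were called higher and 1211 lower in that fit. Among the calls lost, Slc2a3 stood at −0.06 (edgeR adjusted p = 0.92), Slc16a3 at −0.05, Bnip3l at −0.23 and Ddit4 at −0.19. Slc2a1 stood at 0.33, Pfkfb4 at 0.35, Mxi1 at 0.26 and Hk1 at 0.48 (edgeR adjusted p = 0.0546), while Pfkl (0.29), Pkm (0.39), Tpi1 (0.71) and Ankrd37 (1.35) had folds at least as large as without the score. Hk2, Gpi1 and Egln3 were called higher in both of these fits. With both scores at once, 0 of the 34 genes were called, and 15 genes were called higher and 26 lower of the 14067. The median fold of the 34 genes was 0.37 in that fit, against 0.36 without covariates, and 29 values were above 0 in each. Single folds still moved in both directions. They were smaller for Pfkm (0.45, against 1.82), Egln3 (0.78, against 1.74) and Pfkfb4 (0.12, against 0.67), and turned for Ddit4 (0.38, against −0.61). They were larger for Ankrd37 (2.04, against 0.74) and Pfkp (0.65, against 0.34). The SEs were larger, as for Hk1 (0.61 ± 0.24, against 0.58 ± 0.08) and Hk2 (1.13 ± 0.31, against 1.398 ± 0.18), with edgeR adjusted p of 0.278 and 0.134.

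Leaving out libraries gave a second view. Without aged replicates 2, 3 and 5, those of the highest muscle and adipocyte shares, 19 genes were called higher, 17 of them among the 20, and 1 lower. In that fit 3145 of 14268 tested genes were called higher and 2797 lower. Pfkm then changed by 1.11 (edgeR adjusted p = 0.0385), Aldoa by 0.77 and Gapdh by 0.60 (edgeR adjusted p = 0.0145 and 0.00541). The calls of Tpi1, Egln1, Ankrd37 and Car9 were lost. Without aged replicates 1 and 6, those of the highest erythroid and neutrophil shares, 18 genes were called higher, each among the 20. Slc2a3 then changed by 0.75 (edgeR adjusted p = 0.00311). In that fit 3162 of 14148 tested genes were called higher and 2910 lower. How much of each difference comes from muscle, fat or blood cells in the sample was not tested.

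**Figure D5:**
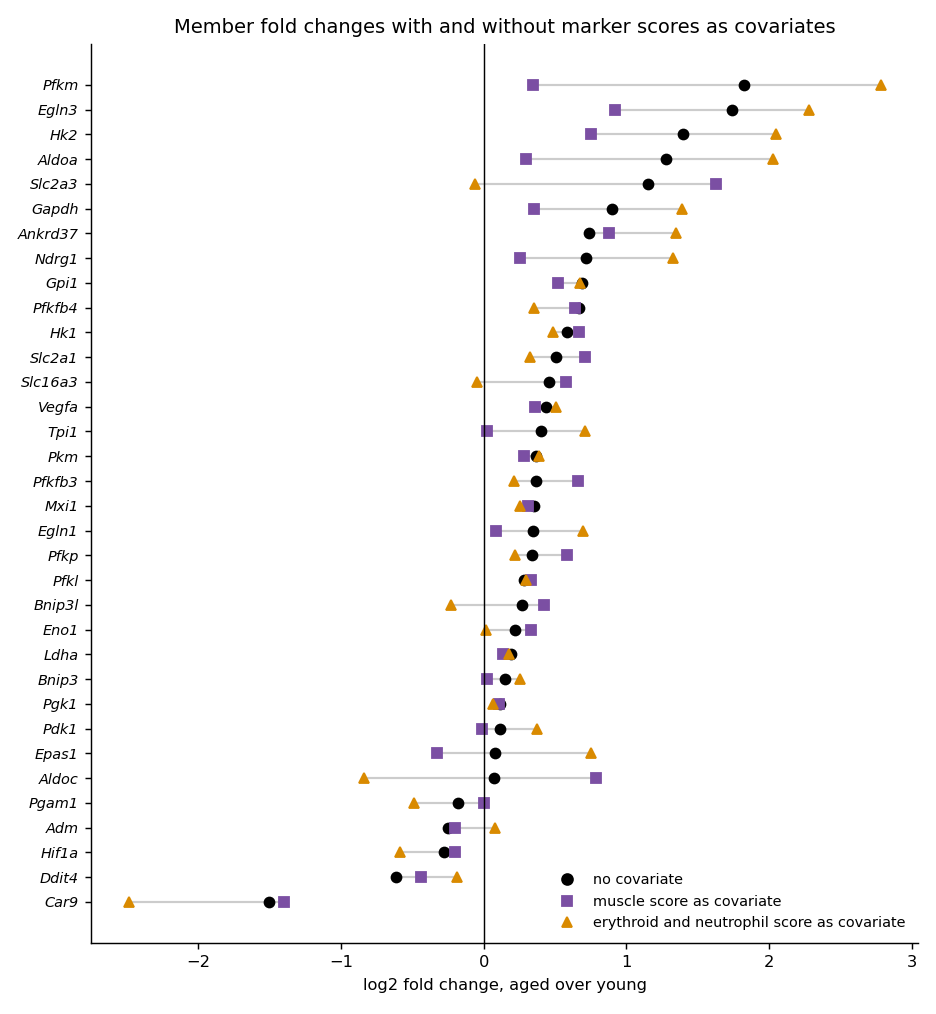
For each of the 34 genes the log2 fold change, aged over young, is shown without a covariate (circle), with the muscle score (square) and with the erythroid and neutrophil score (triangle). Pfkm moves from 1.82 to 0.35 with the muscle score, Slc2a3 from 1.15 to −0.06 with the erythroid and neutrophil score, and the 3 marks of Gpi1 lie between 0.52 and 0.69.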

How the data were processed

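RNA from 13 libraries of mouse condylar cartilage was extracted with TRIzol, selected by oligo(dT) and sequenced strand-specifically, per the labels' protocols. The submitters' processing notes name HISAT2 2.1.0, Bowtie2 2.3.4.3, RSEM 1.3.1, DESeq2 1.4.5 and GRCm39, with roles and annotation not given in the sources used here. The authors deposited expected counts, per the file headers, of which 5.3% were not whole, and the deposited TPM and FPKM were normalised by length and depth.

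The 34 genes and the other lists were chosen with earlier results of these data known. Expected counts were rounded and tested over the whole table in R 4.3.3 with edgeR 4.0.16: filterByExpr (minimum count 10, minimum total 15), TMM scaling, glmQLFit with robust estimation and glmQLFTest, with a threshold of 0.05 after Benjamini-Hochberg adjustment. Levels are TMM-normalised CPM. Isozyme shares used deposited TPM. Marker scores were means of log2 CPM over the list. Limma 3.58.1, DESeq2 1.42.0 and limma on log2(TPM + 1) and log2(FPKM + 1) were alternatives, beside other scalings and filters, covariates and each library left out. Genes were given in full when called with an absolute log2 fold change of at least 0.5, when most abundant in their role, or by name (Hif1a, Epas1, Vegfa, Slc2a1, Ldha, Hk2). From each further list the rule took up to 4 called genes with the largest rise and 4 with the largest fall; some genes of these lists and families are not reported here.

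The aged against young fit was tested on simulated counts of 13851 genes with 50 changed at each size. It recovered 60% of the 1.5-fold, 92% of the 2-fold and 98% of the 4-fold changes, and 5.91% of its calls were false. Its rate of false calls under changes as widespread as in the deposited libraries, where 46.2% of genes were called, was not tested. No libraries of 1 age agreed within sampling noise (smallest chi-square per degree of freedom 10.3). At this depth counting error is small beside the spread between libraries, except near 1 CPM. Promoters came from RefSeq and figures from matplotlib 3.10.9.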

Additional observations from a re-analysis of the deposited data

Results flagged for a closer look

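In 170 sets of values, the gap between the extreme library and its nearest neighbour was compared with the range of its age group, and 10 passed Dixon's critical value. Chance passes about 1 in 20.

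Aged replicate 1 accounted for 4 of them. Aldoc, the brain aldolase, was at 24.6 CPM there, with the next aged library at 6.597. Its share of aldolase TPM was 1.41%, against 0.270% in the next library, and the Aldoa share was correspondingly 98.6%, against 99.7%. Eno2, the neuronal enolase, held 2.06% of enolase TPM, against 1.09%.

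Young replicate 2 accounted for 3. Gapdh was at 1269 CPM, with the next young library at 947, and Egln1 at 118 CPM, with the next at 97.9. The Egln2 share of prolyl hydroxylases was 44.4% there, with the next lowest at 50.9%. This library also held the highest young muscle share, 0.596% of counts.

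The remaining values stood alone in their libraries. Slc2a3 was at 37.8 CPM in young replicate 6 (next 29.2), Vegfa at 242 CPM in young replicate 1 (next 203) and Lox at 472 CPM in aged replicate 4 (next 267).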

How the results depend on the processing

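The count of 20 genes higher and 2 lower changed as follows. Leaving out each library in turn gave 18 to 21 and 2 to 3, and 14 to 20 of the isozyme shares were called against 17. No filter, a stricter filter and RLE scaling gave 20 and 2, and DESeq2 21 and 3. Quantile scaling gave 18 and 3, limma-voom 19 and 3 and upper quartile scaling 20 and 3. Limma on log2(TPM + 1) gave 23 and 2, beside 3883 higher and 2211 lower of tested genes. Library sizes alone, log2(FPKM + 1) and log2(FPKM + 0.1) each gave 27 and 2. Over tested genes, they called 7034, 6250 and 6234 higher and 1253, 1361 and 1366 lower, against 3471 and 3033 in the main fit. As covariates, the muscle score gave 10 and 0, the erythroid and neutrophil score 10 and 1, and both together 0 and 0. Over tested genes, these covariate fits called 1895, 1454 and 15 higher and 1662, 1211 and 26 lower. Without the 3 aged libraries of highest muscle share, 1 was lower. That choice and the one by erythroid share were made after seeing the data. In the glucose list, genes called higher numbered 18 with the muscle score, 22 with the erythroid and neutrophil one and 1 with both; genes called lower numbered 1 with library sizes alone, 1 with the erythroid and neutrophil one and 0 with both. In the hypoxia list, genes called higher numbered 20 with library sizes alone, 8 with the muscle score and 0 with both; genes called lower numbered 11, 15, 10 (erythroid and neutrophil score) and 0. The cause was not tested.

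The following signs turned. With the erythroid and neutrophil score, log2 fold changes were −0.0626 for Slc2a3, −0.0459 for Slc16a3, −0.84 for Aldoc, −0.23 for Bnip3l and 0.0796 for Adm. With both scores they were −0.0545 for Slc16a3, −0.13 for Bnip3l, 0.32 for Adm and 0.38 for Ddit4. With the muscle score they were 0.00134 for Pgam1, −0.0116 for Pdk1 and −0.33 for Epas1, which also stood at −0.24 without the aged libraries of highest muscle share and at −0.0218 without aged replicate 3 (up to 0.147 with another library left out). Aldoc stood at −0.39 under quantile scaling, −0.11 on log2(TPM + 1), −0.001326 on log2(FPKM + 0.1), −0.19 in limma-voom, −0.17 with the replicate block, −0.60 without aged replicate 1 (up to 0.189 with another left out) and −0.57 without the aged libraries of highest erythroid share. Pgam1 stood at 0.0545 with library sizes alone, 0.01581 on log2(FPKM + 1) and 0.01585 on log2(FPKM + 0.1). Differences in isozyme share that turned were those of Egln1 without young replicate 1 or 2 (0.08253 and 0.445 points) and aged replicate 1, 2 or 3 (0.133, 0.216 and 0.344), Eno2 without young replicate 5 (0.00421) and Slc2a3 without aged replicate 2 or 3 (0.11 and 0.14). With other libraries left out these 3 differences reached −0.623, −0.261 and −5.64 points.

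The labels do not say whether same-numbered libraries belong together, and the samples were treated as unpaired. Deviations of same-numbered libraries correlated between −0.12 and 0.258, over 0.1 for 5 of 6 pairs, and 2 of 6 matched best with their own number. With that number as a replicate block, 19 genes were higher, 18 of them among the 20, and 2 lower. Over tested genes, the block fit called 3068 higher and 2703 lower. Slc16a3 (edgeR adjusted p = 0.0575) and Bnip3l (0.121) were not called and Pfkfb3 (0.014) was. Depth limits genes near 1 CPM, such as Car9.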
